A study of Daucus carota subsp. sativus with 2 samples.

Results

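Auxin efflux carriers were examined in carrot (Daucus carota subsp. sativus) roots, in 1 RNA library of the orange variety, labelled Hybrid, and 1 of the red variety, labelled Delhi. The study's title calls the orange carrot modified and the red one wild. Both libraries came from poly(A)-selected RNA of untreated roots, and the labels give no age, number of plants or root zone for either. The carriers are the 11 of 19838 transcripts in the deposited count table whose protein name contains "Auxin efflux carrier"; all 11 carry the same name, auxin efflux carrier component. They fall under 10 gene names, because rna45754 and rna28547 are both given as DCAR_026777. The remaining DCAR names and the name BnaA02g26940D GSBRNA2T00069575001 of rna37801 occur once each among them. None (0) of these names matched the reference gene table, so positions, lengths and sequences are not given here.

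Auxin efflux carriers, the PIN family, are membrane proteins that export the hormone auxin from cells. Their placement on particular faces of the cell gives auxin transport its direction, and the resulting auxin gradients guide root growth, vascular patterning and the activity of the cambium that thickens storage roots. Family members differ in location and role, some on the plasma membrane and others at the endoplasmic reticulum. The deposited names do not say which kind any of the 11 transcripts is, so no member is assigned a subfamily or role here.

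The libraries held 7432754 counts for orange and 11310179 for red. Counts were made comparable by size factors of 0.937 for orange and 1.07 for red, and a scaled count is the count divided by that factor. With 1 library per variety there is no spread between plants, so a test has no residual degrees of freedom, none was made, and every difference below is between these libraries. Intervals in the text are 95% exact Clopper-Pearson intervals of the counts, cover counting error only, and say nothing about variation between roots. In bulk tissue, fewer cells of a type and less RNA per cell cannot be told apart.

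As a family, the carriers were higher in the orange library. The 11 transcripts summed to 4286 counts in orange and 981 in red, although the orange library was the smaller. As shares of all counts this is 0.0577% in orange (interval 0.0560 to 0.0594) and 0.00867% in red (0.00814 to 0.00923). After scaling, the sum was 4.97-fold higher in orange (4.64 to 5.34). A single transcript contributed most of that excess. Without rna45754 the other 10 summed to 1740 counts in orange and 847 in red, and the ratio was 2.34-fold (2.15 to 2.54).

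Most members pointed the same way. Of the 11 transcripts 9 had the higher scaled count in orange, which was so for 48.5% of all transcripts, and 2 had it in red, against 51.5%. For 8 of the 11, orange was at least 2-fold higher with a counting interval that excluded equality, against 21.7% of all 19838 transcripts. On the same rule 1 of the 11 was higher in red, against 26.2% of all transcripts, and 2 fell under neither heading. Of the 11, 9 reached a mean scaled count of 10, the minimum used for a transcript to be measured, and 2 did not (rna17532 and rna47295). Among the 9 measured carriers 7 were higher in orange, against 24.4% of 14868 measured transcripts, and 1 in red, against 30.6%. At a 4-fold limit these numbers were 4 in orange, against 12.6%, and 1 in red, against 19.8%. Among the 9, rna22354, rna26933 and rna23953 had scaled counts under 10 in red, and rna43315 had 2.13 in orange. Each of these passed the minimum through the library where it was higher, under a filter that all measured transcripts share. The median log2 ratio of orange over red, with 0.5 added to scaled counts, was 1.56 over the 9 and also over all 11, whereas over all measured transcripts it was -0.06. With the transcripts at 0 in a library set at their bounds and nothing added, the median over all 11 was 1.57. The members and auxin lists were proposed with earlier results of these libraries known, so these counts are a description of the family.

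**Figure D1:**
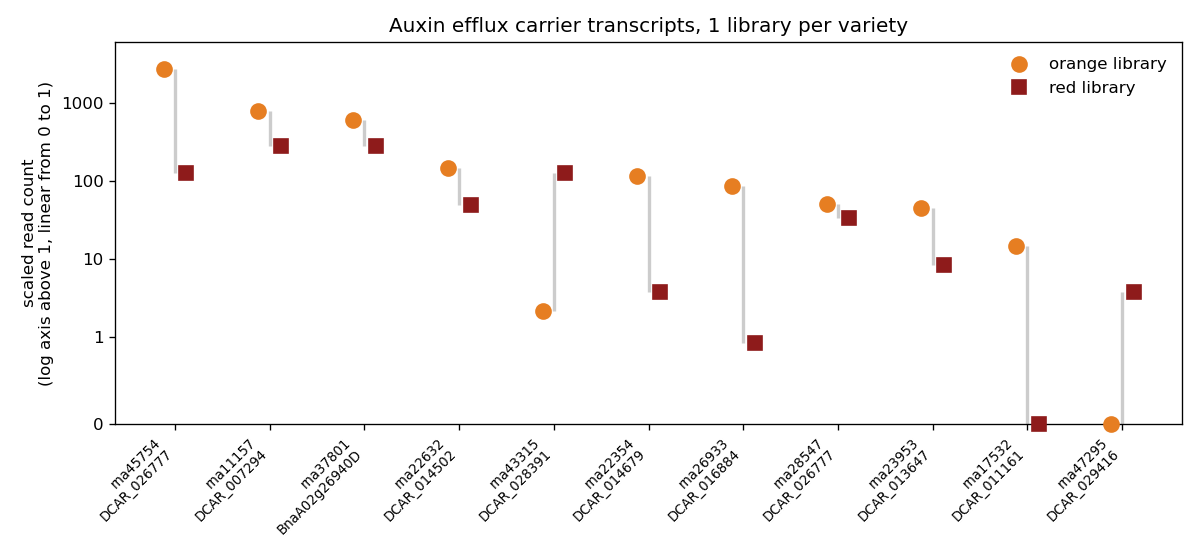
Scaled read counts of the 11 auxin efflux carrier transcripts in the orange library (orange circles) and the red library (red squares), with a grey line joining each pair; the vertical axis is logarithmic above 1 and linear from 0 to 1. The orange circle is the higher in 9 of the 11 transcripts, and rna43315 and rna47295 are the 2 with the higher red square.

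The carrier with the most reads over both libraries was rna45754, under the name DCAR_026777. It had 2546 counts in the orange library and 134 in the red library, or scaled counts of 2717 in orange and 126 in red. Orange was 21.6-fold higher (interval 18.2 to 25.9). Of all measured transcripts, 3.87% had a larger log2 ratio toward orange. The second row named DCAR_026777, rna28547, had 47 counts in orange and 36 in red. Its ratio of 1.49 had an interval from 0.943 to 2.36, which includes equality. The rows that share this gene name had unequal ratios. The ratio of rna45754 was 14.5 times that of rna28547 (conditional exact interval 8.82 to 23.8), a quantity that no scaling of the libraries can change. Of the 2593 orange counts on the pair, 98.2% were on rna45754 (97.6 to 98.7), and of the 170 red counts 78.8% were (71.9 to 84.7). Summed over both rows, DCAR_026777 was 17.4-fold higher in orange (14.9 to 20.4). The labels do not say how reads shared by near-identical transcripts were counted, so the split between the rows is less certain than their sum.

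Another 3 carriers had at least 50 counts in both libraries, and their differences were smaller. DCAR_007294 (rna11157) had 734 counts in orange and 303 in red, a ratio of 2.76 (2.41 to 3.16). The transcript rna37801 had 576 counts in orange and 304 in red, a ratio of 2.16 (1.87 to 2.49), so its interval reached below the 2-fold limit. DCAR_014502 (rna22632) had 136 counts in orange and 52 in red, a ratio of 2.98 (2.15 to 4.18). The ratio of rna22632 was 1.08 times that of rna11157 with a conditional exact interval of 0.756 to 1.56, which includes equality. The ratio of rna11157 was 1.28 times that of rna37801 (1.05 to 1.56), a gap just beyond counting error. All 3 lie well under rna45754. Its ratio was 7.84 times that of rna11157 (6.27 to 9.84), 10.02 times that of rna37801 (7.99 to 12.6) and 7.25 times that of rna22632 (4.94 to 10.6).

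The 4 carriers with fewer than 10 counts in red and more in orange had few reads behind their ratios. DCAR_016884 (rna26933) had 80 counts in orange and 1 in red, a ratio of 91.1 with a wide interval, 15.9 to 3642. DCAR_014679 (rna22354) had 109 counts in orange and 4 in red, a ratio of 31.03 (11.8 to 116). DCAR_011161 (rna17532) had 14 counts in orange and 0 in red. Against a floor of 3 counts in the red library rna17532 was at least 5.31-fold higher in orange, and its counting interval began lower, at 3.78. DCAR_013647 (rna23953) had 42 counts in orange and 9 in red, a ratio of 5.31 (2.55 to 12.4). The ratios of rna26933 and rna22354 exceed that of rna45754 as point values, but the depth does not separate them. The ratio of rna45754 was 0.697 times that of rna22354 (0.184 to 1.88) and 0.238 times that of rna26933 (0.00590 to 1.39).

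DCAR_028391 (rna43315) was the exception in direction. It had 2 counts in the orange library and 134 in the red library, and was 58.8-fold higher in red (16.0 to 491). Of all measured transcripts, 4.78% had a log2 ratio further toward red. In orange rna43315 thus had 2 counts and rna45754 had 2546, whereas in red both had 134. The other member with more reads in red was DCAR_029416 (rna47295), with 0 counts in orange and 4 in red. Its counting interval for orange over red ran from 0 to 1.72, so no direction was detectable at this depth.

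**Figure D2:**
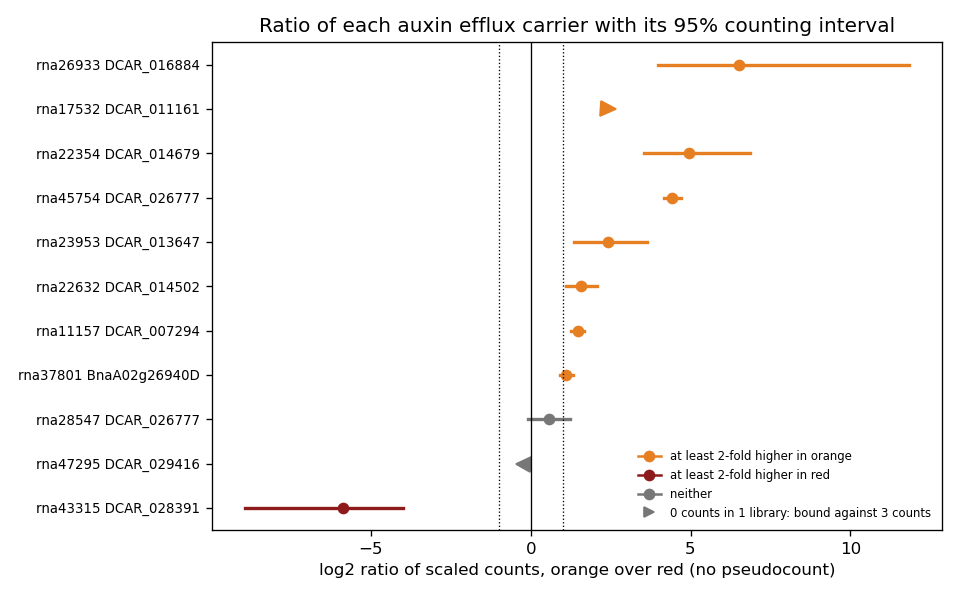
Log2 ratio of scaled counts, orange over red with nothing added, for each auxin efflux carrier (points) with its 95% counting interval (lines); triangles mark transcripts with 0 counts in a library, at the bound against 3 counts, dotted lines mark 2-fold and colours give the call. The 8 orange symbols lie right of the 2-fold line, and rna43315 lies far to the left at a ratio of 0.0170. The intervals are widest where the smaller of a transcript's pair of counts is lowest.

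Because the members differed by unequal factors, the family was made up differently in each library. In orange, rna45754 held 59.4% of the carrier counts (57.9 to 60.9), and in red it held 13.7% (11.6 to 15.97). DCAR_028391 showed the reverse, with 0.0467% of the carrier counts in orange (0.00565 to 0.168) and 13.7% in red. The shares of the moderately different members were smaller in orange although their scaled counts were higher there. DCAR_007294 held 17.1% of the orange carrier counts (16.01 to 18.3) and 30.9% of the red ones (28.01 to 33.9), and rna37801 held 13.4% of the orange ones (12.4 to 14.5) and 30.99% of the red ones (28.1 to 34.0). Together these last 2 transcripts made up 30.6% of the carrier counts in orange and 61.9% in red. Shares are of reads and are not corrected for transcript length, so they compare a member between libraries and not one member's abundance with another's.

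**Figure D3:**
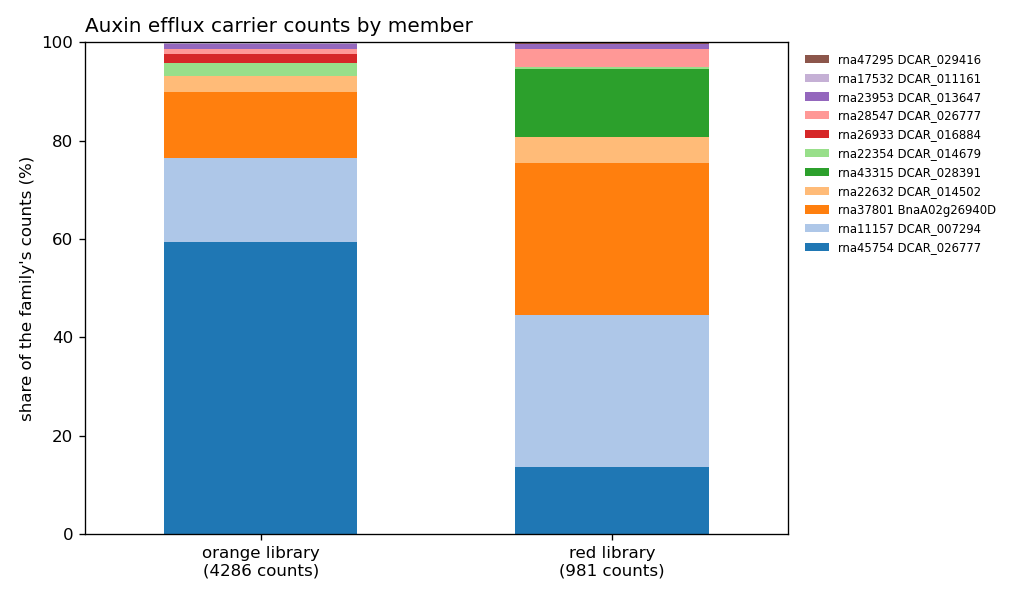
Share of all auxin efflux carrier counts (%) held by each member in the orange library (left, 4286 counts) and the red library (right, 981 counts). The bottom block, rna45754, fills 59.4% of the orange bar and 13.7% of the red bar, and the dark green block, rna43315, is visible only in the red bar.

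The direction of the carriers did not turn on how the libraries were scaled. Dividing by total counts moved the median log2 ratio of all measured transcripts by 0.42 toward orange, and scaling to the upper quartile moved it by 0.26. With total counts, orange took 57.0% of the 2-fold differences among measured transcripts, against 44.4% with the size factors used here. Under the 4 scalings 7 of the 9 measured carriers were called higher in orange and 1 in red. Over all 14868 measured transcripts the calls ran from 3628 to 4955 for orange and from 3731 to 4548 for red. The ratio of rna45754 ran from 21.6 to 28.9 and that of rna43315 from 0.0170 to 0.0227, that is, higher in red throughout. The ratio of rna28547 was the most affected in its reading: with total counts it reached 1.99 with an interval of 1.26 to 3.16, which excludes equality but stays under 2-fold.

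**Figure D4:**
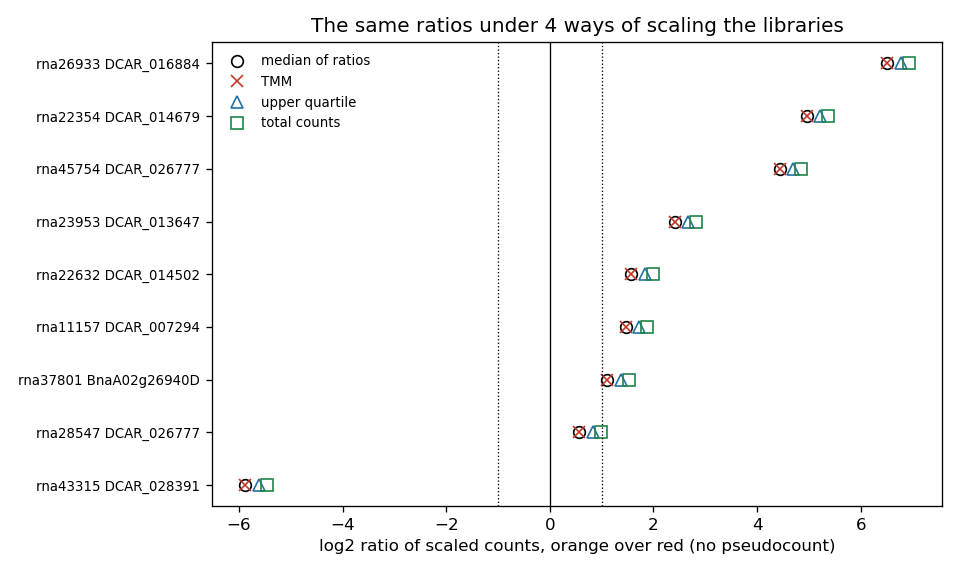
Log2 ratio, orange over red with nothing added, of the 9 auxin efflux carriers with reads in both libraries, under median-of-ratios (circles), TMM (crosses), upper-quartile (triangles) and total-count (squares) scaling; dotted lines mark 2-fold. Each row keeps its side of 0, and rna28547 stays left of the 2-fold line under all 4.

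The authors' deposited table places 7 of the carriers among transcripts higher in orange, 1 among those lower, 1 as neutral and 1 in each list of transcripts found in a single library. In the authors' deposited table the p-values of 3 carriers were under 0.05, namely 0.0345 for rna45754, 0.0360 for rna43315 and 0.0478 for rna26933. The lowest adjusted p-value of a carrier in the authors' deposited table was 0.709, for rna45754. No source used here states how those p-values allow for the missing replicates.

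The rest of the auxin pathway gave a mixed picture. Auxin acts by binding receptors of the TIR1 type, which leads to the breakdown of Aux/IAA repressors and frees auxin response factors to control transcription. Of 15 measured auxin response factors, orange was at least 2-fold higher for 7 and red for 4, with a median log2 ratio of 0.73; the shares over all measured transcripts, 24.4% for orange and 30.6% for red, and their median of -0.06 apply to this and the following lists. Only 1 response factor was called for red with total-count scaling and 2 with upper-quartile scaling, each time beside 8 for orange. Calls over all 14868 measured transcripts shifted too. They were 3631 for orange and 4546 for red with the size factors used here. With total counts they were 4955 and 3731, and with the upper quartile 4443 and 4013. The median was 1.68 when a mean scaled count of 50 was required. DCAR_025655, which had the highest mean scaled count of the list, had 1782 counts in orange and 4592 in red and was 2.26-fold higher in red (2.14 to 2.39). DCAR_007870, the next in that order, had 3527 counts in orange and 345 in red and was 11.6-fold higher in orange (10.4 to 13.04). After scaling, the sum over the 15 was 1.78-fold higher in orange (1.73 to 1.84). The response factors thus contained members of both directions, as the carriers did.

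Among 33 measured auxin-responsive proteins, a name that covers the Aux/IAA repressors, orange was at least 2-fold higher for 16 and red for 7 (median log2 ratio 0.98); with a minimum mean scaled count of 50, red was higher for 4. After scaling, the sum over the 33 was 2.52-fold higher in orange (2.48 to 2.57). The 2 with the highest mean scaled counts both had a ratio of 9.03, DCAR_012517 with 7168 counts in orange and 904 in red and POPTR_010G078400v3 with 6113 in orange and 771 in red. Of the 44 transcripts matched by this name, 5 are named as SAUR proteins, products of early auxin-responsive genes, and belong to the next list too. In that list of auxin-induced and SAUR proteins orange was higher for 6 of 8 measured transcripts and red for 1 (median log2 ratio 2.44, or 2.56 with transcripts at 0 set at their bound). That direction rests on low counts. With a minimum mean scaled count of 50 only SAUR36_2 A4A49_28710 was left, so orange was higher for 0 and red for 1. The median of -3.75 was that transcript's own log2 ratio and does not describe the list. The sum over the 8 went toward red, with 309 counts in orange and 542 in red. That excess came from SAUR36_2 A4A49_28710, with 32 counts in orange and 496 in red. That transcript was 13.6-fold higher in red (9.52 to 20.1). The next by counts, BVC80_9015g49 (rna8096), had 78 counts in orange and 1 in red, a ratio of 88.8 (15.5 to 3552).

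The 2 transcripts named for the TIR1 receptor pointed in opposite directions. LOC104215672 had 1706 counts in orange and 365 in red, 5.32-fold higher in orange (4.75 to 5.98). LOC107821218 LOC107780463 had 49 counts in orange and 253 in red, 4.53-fold higher in red (3.33 to 6.29). Summed and scaled, the 2 were 3.23-fold higher in orange (2.95 to 3.55). Among 12 measured transcripts of auxin synthesis and release, orange was higher for 4 and red for 5 (median log2 ratio -0.60), or 2 and 2 with a minimum mean scaled count of 50. The scaled sum over the 12 had a ratio of orange over red of 0.956 (0.899 to 1.02), which includes equality. Most of that list are flavin-containing monooxygenases, a family that includes the YUCCA enzymes of auxin synthesis and others that act elsewhere. The 2 with the highest mean scaled counts were DCAR_025102 (rna40026), with 503 counts in orange and 847 in red, and DCAR_027795, with 174 in orange and 716 in red. Red was the higher for both transcripts, by 1.48-fold (1.32 to 1.65) for the first and 3.61-fold (3.06 to 4.29) for the second. A second row named DCAR_025102, rna40025, went the other way. It had 242 counts in orange and 137 in red, a ratio of 2.01 (1.62 to 2.50). Searches of the protein names for auxin influx carriers, ABCB transporters, auxin conjugation enzymes and regulators of the carriers found 0 transcripts each. Only 3717 of the 19838 transcripts have an informative protein name, so this says nothing of whether such genes were expressed.

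**Figure D5:**
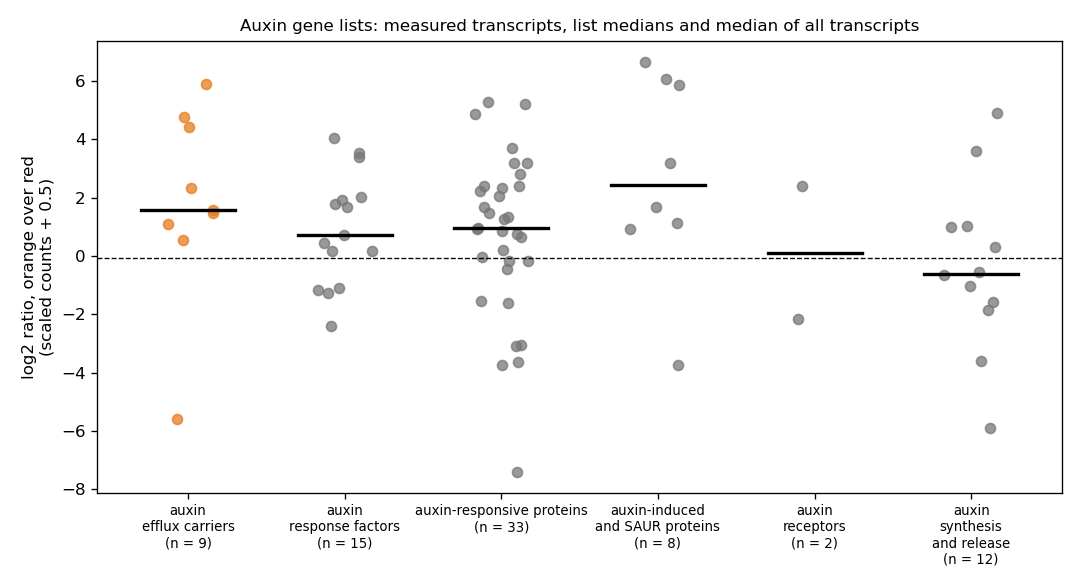
Log2 ratio, orange over red on scaled counts with 0.5 added, of the measured transcripts of 6 auxin gene lists (points) with list medians (black bars) and the median of all 14868 measured transcripts (dashed line, -0.06). The carriers (orange points, n = 9) have 8 points above the dashed line and 1 far below it, and each other list also has points on both sides.

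Markers of tissue types differed between the libraries along with the carriers. Over all 14868 measured transcripts, orange was at least 2-fold higher for 24.4% and red for 30.6%, and these shares apply to each marker list. Among 41 measured transcripts of photosynthetic tissue, orange was at least 2-fold higher for 3 and red for 33. The list held 0.313% of the orange counts and 4.28% of the red ones, and 3 of its transcripts had 0 counts in orange. Of 6 phloem transcripts 1 was higher in orange and 5 in red, at 0.0495% of counts in orange and 0.312% in red. The 5 higher in red all carry the gene name PP2-2. The 1 higher in orange is a sieve element occlusion transcript, with 109 counts in orange and 37 in red. Expansins and xyloglucan endotransglucosylases, marks of elongating cells, had 20 of 30 higher in orange and 4 in red, at 1.68% of counts in orange and 0.0750% in red, with 3 at 0 in red. After scaling, their sum was 16.7-fold higher in orange (16.4 to 17.1). Most of the 124592 orange counts were on 3 xyloglucan endotransglucosylases. These were rna41275 (55616 counts in orange, 2499 in red), rna47804 (29201 and 163) and rna16914 (22778 and 906). Of 31 markers of dividing cells, 13 were higher in orange and 8 in red, at 0.104% of counts in orange and 0.0342% in red, with 2 at 0 in orange. The calls are 41.9% of the list for orange and 25.8% for red, the latter below the 30.6% over all measured transcripts. After scaling, the sum was 2.28-fold higher in orange (2.19 to 2.37). Much of the orange sum of 7750 counts was on 2 histone H2A transcripts. These were rna3849, with 3063 counts in orange and 139 in red, and rna15810, with 1119 and 84. That list, matched by name, holds 2 cyclin-dependent kinase inhibitors, which restrain division, and 1 of them is among the 13. Cellulose synthases and laccases were taken as markers of secondary wall and xylem, though their names do not state a wall type or tissue. Of 21 of them, 14 were higher in orange and 1 in red, at 0.342% of counts in orange and 0.215% in red. After scaling, their sum was 1.19-fold higher in orange (1.17 to 1.21). No list of genes that define root tissue was matched, so the root label was not checked further. The part of tissue makeup in the carrier differences was not tested, and variety, library and the tissue taken cannot be told apart.

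Transcripts with counts most like those of the leading carriers were sought with all carriers left out of the search. Likeness was the Euclidean distance of log2 scaled counts over the 2 libraries, among 3706 other transcripts with an informative name. Nearest to rna45754 were a histone H2A, DCAR_002780 (rna3849, 3063 counts in orange and 139 in red, distance 0.272), and rna3347, an isoform of the carrot major allergen (2776 in orange and 107 in red, distance 0.346). A second row named DCAR_002780, rna8755, had 92 counts in orange and 173 in red. Nearest to rna11157 were a histidine-containing phosphotransfer protein, TCM_021095 (771 counts in orange and 305 in red, distance 0.0715), and rna796, a tubulin beta chain (823 in orange and 321 in red, distance 0.185). With 2 libraries such a distance says only that the counts were alike.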

How the data were processed

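Poly(A)-selected root RNA was sequenced, 1 library per variety, per the labels' protocols; groups follow the sample titles. FastQC and cutadapt, HISAT and HTSeq, and DESeq are named, without versions, per the submitters' processing notes. Genome build, annotation and strand setting were not given in the sources used here. Read counts per transcript were deposited by the authors, with normalised counts, a signal found here to equal the count times 1.07 for orange and 0.937 for red. The authors' deposited comparison tables hold a fold (ratio of normalised counts, orange over red), its log2 and a p-value with its adjusted value.

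Scaling used median-of-ratios size factors. Transcripts with a mean scaled count of at least 10 were measured. A call needed a ratio of at least 2-fold and a 95% exact interval excluding equality. Log2 ratios had 0.5 added to scaled counts; ratios had nothing added. Ratios against 0 counts are bounds against 3 counts in that library. Counting intervals and floors treat reads as independent molecules. Without replicates the edgeR quasi-likelihood test has no residual degrees of freedom, so no p-value was computed. From edgeR 4.0.16 only TMM factors were used. Python 3.11.15 and SciPy 1.17.1 were used, and the calls were tested on simulated counts. Those counts were drawn with counting error only, so that check says nothing about spread between plants. Members and lists (patterns on protein names) were chosen with earlier results of these data known. Genes named are every carrier, the 2 most counted members of each other auxin list and the 2 nearest transcripts to each of the 2 leading carriers. The second rows of DCAR_025102 and DCAR_002780, the phloem transcripts, and the histone and xyloglucan endotransglucosylase transcripts of the marker lists were named after their values were seen. Alternatives covered scaling, filter, pseudocount, fold limit and summing by gene name.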

Additional observations from a re-analysis of the deposited data

How the results depend on the processing

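Under total-count and upper-quartile scaling the summed carrier ratio, 4.97 with median-of-ratios factors, was 6.65 and 5.96. Without rna45754 it was 2.34 with median-of-ratios factors, 3.13 with total counts and 2.80 with the upper quartile. Every one of these ratios was toward orange. At a 4-fold limit 4 carriers in place of 7 were called higher in orange. Auxin response factors higher in red numbered 4, but 1 with total-count and 2 with upper-quartile scaling. Red calls over all measured transcripts also fell, from 4546 to 3731 and 4013. With a minimum mean scaled count of 50, which leaves fewer transcripts, the response factor median was 1.68 in place of 0.73, auxin-responsive proteins higher in red numbered 4 in place of 7, and the synthesis and release list had 2 higher in orange and 2 in red in place of 4 and 5. The auxin-induced and SAUR list then had 0 called higher in orange. Its median of -3.75 was the value of SAUR36_2 A4A49_28710, its only transcript to reach that minimum. In the other alternatives, 51 counts of calls stayed within a factor of 1.5, and 34 list medians stayed within the counting interval of the list's middle transcript or the mean interval of its middle pair. Those intervals are wide: for the synthesis and release median of -0.60 it ran from -1.14 to -0.10, and with total counts that median was -0.19. Of 55 alternative log2 ratios of single carriers, 49 stayed within their counting intervals and 6 did not, none (0) of which changed sign. Low depth limits rna26933, rna22354, rna17532, rna43315 and rna47295, each with at most 4 counts in 1 library. No paired analysis was possible because each variety has 1 library. Leaving out a replicate was likewise impossible.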
